A study of Mus musculus with 50 samples.

Results

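The GATA factors described here are *Gata2*, *Gata3*, *Gata4*, *Gata5* and *Gata6*, the autosomal members of the GATA family of transcription factors, 5 of the 18055 genes of an RNA-seq table. They were chosen by name, as the family, with earlier results of these data known. In mouse embryonic stem cells (ESCs) with and without an active Polycomb repressive complex 2 (PRC2), *Gata3* and *Gata4* were the members that passed the test: both were higher in *Ezh1/2* dKO than in WT ESCs, and *Gata3* was also higher in *Ezh2* Y726D ESCs. All 5 loci carried SUZ12 and H3K27me3 peaks in WT ESCs, beside 14.2% and 18.4% of all protein-coding genes. No H3K27me3 peak was listed at any of them in *Ezh2* Y726D ESCs, where only 1.12% of all protein-coding genes had one. In that line 4 of the 5 carried H3K27ac near a start site, beside 46.0% of all protein-coding genes, and none did at a -log10 p of at least 20.

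The lines derive from E14 mouse ESCs (WT) and were made by CRISPR/Cas9 as screened clones. *Ezh2* KO ESCs carry a deletion of *Ezh2*, and *Ezh1/2* dKO ESCs carry deletions of *Ezh1* and *Ezh2*. *Ezh2* Y726D and *Ezh2* R685C ESCs each carry a point mutation in EZH2 and are also deleted for *Ezh1*, so that the point mutant is the EZH2 protein left in them. *Ezh2* Y726D was designed as a form without catalytic activity. For HA ChIP-seq, *Ezh1/2* dKO ESCs expressed HA-tagged EZH1 or served as the control without it. The cells were grown on gelatin in 2i/LIF medium with serum. RNA-seq of every line but *Ezh2* R685C was analysed, with 2 libraries each. Lists of peaks came from 1 library per line and target, so differences between lines in peaks have no replicate check and were not tested. The labels number the RNA-seq libraries as replicates without saying whether they came from separate cultures, so the p-values measure only the spread between these libraries.

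GATA factors bind DNA through zinc fingers that read the letters GATA. *Gata2* is required in blood stem and progenitor cells, *Gata3* in T cells and in the trophectoderm, *Gata4* and *Gata6* in the primitive endoderm and the heart, and *Gata5* in the endocardium. PRC2 contains the core subunit SUZ12 and EZH2 or its paralog EZH1, which methylate lysine 27 of histone H3. Its trimethylated form, H3K27me3, marks developmental genes that are silent in ESCs. Acetylation of the same lysine, H3K27ac, marks active promoters and enhancers and cannot sit on a residue that is methylated.

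The sequences on which the peak results turn are shown for *Gata2*, *Gata3*, *Gata4* and *Gata5*, as 201 bases around the summit of a peak on the plus strand of mm9, in lower case with each CpG in capitals. For *Gata2* (chr6:88146746-88146946) and *Gata4* (chr14:63863437-63863637) the peak is an H3K27ac peak of *Ezh2* Y726D ESCs in an intron, the one nearest to a start site that is clear of untranslated exons. For *Gata3* (chr2:9796452-9796652) it is the H3K27me3 peak of *Ezh1/2* dKO ESCs and for *Gata5* (chr2:180068746-180068946) the SUZ12 peak of *Ezh1/2* dKO ESCs, whose summits both lie in a coding exon.
Gata2: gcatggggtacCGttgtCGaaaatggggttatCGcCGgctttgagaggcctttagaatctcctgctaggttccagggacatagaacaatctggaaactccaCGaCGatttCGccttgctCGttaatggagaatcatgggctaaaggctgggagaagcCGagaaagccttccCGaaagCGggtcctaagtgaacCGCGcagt
Gata3: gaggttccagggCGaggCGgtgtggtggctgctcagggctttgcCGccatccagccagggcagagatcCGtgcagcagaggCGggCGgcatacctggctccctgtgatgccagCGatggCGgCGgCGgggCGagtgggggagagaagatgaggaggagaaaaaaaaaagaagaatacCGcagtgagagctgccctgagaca
Gata4: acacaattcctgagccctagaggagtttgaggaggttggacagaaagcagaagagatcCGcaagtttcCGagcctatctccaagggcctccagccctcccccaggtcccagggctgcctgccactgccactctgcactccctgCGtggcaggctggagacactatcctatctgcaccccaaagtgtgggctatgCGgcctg
Gata5: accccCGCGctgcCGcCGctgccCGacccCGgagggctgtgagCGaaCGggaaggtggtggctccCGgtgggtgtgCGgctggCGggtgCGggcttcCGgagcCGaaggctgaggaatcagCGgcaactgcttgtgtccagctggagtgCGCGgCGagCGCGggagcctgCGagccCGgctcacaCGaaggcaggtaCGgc
The *Gata5* window held 24 CpG at a GC content of 73.1%. The *Gata2* and *Gata3* windows held 13 and 12 CpG at 52.7% and 63.2% GC, and the *Gata4* window held 4 CpG at 59.7% GC. Windows of the same length at the 5404 SUZ12 summits of WT ESCs held a median of 16 CpG at 65.4% GC, and those at 22356 gene starts a median of 10 at 58.7%. *Gata5* was therefore above both medians for CpG and *Gata4* below both. The letters GATA on either strand were found 3 times in the *Gata4* window and 1 time in the *Gata2* window, and not in the other windows. Among all windows, 24.8% of those at WT SUZ12 summits and 36.7% of those at gene starts held them. Such a match is a description of the letters and not of a binding site.

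In mm9, *Gata2* lies at chr6:88143885-88157024 on the plus strand, with 2 annotated protein-coding start sites, the second 4773 bp inside the gene. *Gata3* (chr2:9778705-9811661, minus strand) has a second start site 11434 bp inside the gene. *Gata4* (chr14:63817759-63890529, minus strand) has 6, of which 3 lie between 26421 and 26444 bp from its 5′ end. *Gata5* (chr2:180059838-180069404, minus strand) has 2 start sites 145 bp apart, and *Gata6* (chr18:11052508-11085633, plus strand) has 1. Distances below run from these start sites in the direction of transcription. Annotated genes overlap 3 members: *Gm13256*, *4930412O13Rik* and *9230102O04Rik* overlap *Gata3*, *Gm14318* overlaps *Gata5* and *1010001N08Rik* overlaps *Gata6*. *9230102O04Rik* lies on the same strand as *Gata3*, and the others on the strand opposite to their member. Reads were counted without strand, so reads from stretches that overlapping genes share cannot be told apart by strand. Of these neighbours only *4930412O13Rik* is in the table, at 0 in 7 libraries and at a normalized count of 2.24 in the second *Ezh2* Y726D library.

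The 8 RNA-seq libraries held 3604123 to 5181553 reads on genes, and 15660 to 17104 genes with a read. The deposited values are normalized counts, read counts divided by a size factor for the library. *Ezh2* was at 598 and 546 in WT, at 1.05 and 0.968 in *Ezh2* KO, at 422 and 613 in *Ezh2* Y726D and at 0.824 and 1.78 in *Ezh1/2* dKO. *Ezh1* was between 227 and 378 in WT and *Ezh2* KO and at most 24.1 in *Ezh1/2* dKO and *Ezh2* Y726D, so both genes followed the labels. The 12 ESC markers were detected in every library (*Pou5f1* 1330 to 1920, *Nanog* 806 to 1010) and none was called in any comparison. Genes were tested with limma on log2 of the normalized count plus 1 where the mean over the 8 libraries was at least 5, which left 13872 genes. Calls needed a Benjamini-Hochberg adjusted p under 0.1 and a log2 fold change of 1 or more in either direction. Of the 5 GATA factors, *Gata2*, *Gata3* and *Gata4* passed the filter on low values, while *Gata5* and *Gata6* did not and have values only.

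*Gata3* had the most reads of the family in every library. Its normalized counts were 50.7 and 21.2 in WT, 115 and 61.0 in *Ezh2* KO, 124 and 107 in *Ezh2* Y726D and 193 and 135 in *Ezh1/2* dKO. Both *Ezh1/2* dKO and both *Ezh2* Y726D libraries lay above both WT libraries, and so did those of *Ezh2* KO, whose lower library was close to the higher WT library. Against WT, *Gata3* was higher in *Ezh1/2* dKO by a log2 fold change of 2.26 ± 0.45 (SE, n = 2 and 2, limma adjusted p = 0.0375) and in *Ezh2* Y726D by 1.78 ± 0.45 (limma adjusted p = 0.0928), or 4.79-fold and 3.44-fold on the scale of normalized count plus 1. In *Ezh2* KO its log2 fold change of 1.32 ± 0.45 did not pass (limma adjusted p = 0.383, unadjusted p = 0.0149). In order, the mean normalized counts were 35.9 ± 20.9 (SD, n = 2) in WT, 88.0 ± 38.2 in *Ezh2* KO, 116 ± 11.7 in *Ezh2* Y726D and 164 ± 41.0 in *Ezh1/2* dKO. No neighbouring lines in this order passed the test. From WT to *Ezh2* KO the 95% interval of the log2 difference was 0.32 to 2.32, which excludes 0 before adjustment. The log2 difference was 0.46 from *Ezh2* KO to *Ezh2* Y726D (95% interval -0.54 to 1.46) and -0.48 from *Ezh1/2* dKO to *Ezh2* Y726D (-1.48 to 0.52). The call in *Ezh2* Y726D ended when any library other than the first WT library was left out (limma adjusted p 0.118 to 0.224) and under edgeR on the reads recovered from the table (adjusted p = 0.11).

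*Gata4* was low and separated the lines into pairs. Normalized counts were 2.67 and 4.81 in WT, 3.14 and 5.81 in *Ezh2* KO, 14.3 and 15.7 in *Ezh2* Y726D and 22.3 and 20.4 in *Ezh1/2* dKO. The WT and *Ezh2* KO libraries overlapped, and all 4 lay below the 4 libraries of *Ezh1/2* dKO and *Ezh2* Y726D. The log2 fold change over WT was 2.27 ± 0.55 in *Ezh1/2* dKO (limma adjusted p = 0.0674, 4.83-fold) and 1.79 ± 0.55 in *Ezh2* Y726D, which did not pass (limma adjusted p = 0.161). Against *Ezh2* KO, *Gata4* was 2.07 ± 0.55 higher in *Ezh1/2* dKO on the log2 scale (limma adjusted p = 0.102) and 1.59 ± 0.55 higher in *Ezh2* Y726D (limma adjusted p = 0.19), and neither passed. The difference between *Ezh2* KO and WT was 0.20 (95% interval -1.03 to 1.43). These values rest on 7 reads in WT, 9 in *Ezh2* KO, 30 in *Ezh2* Y726D and 50 in *Ezh1/2* dKO, summed over both libraries of a line. The call against WT was absent with DESeq2 (adjusted p = 0.185), with quantile normalization (limma adjusted p = 0.162) and without the first WT library (limma adjusted p = 0.158).

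Both calls in *Ezh1/2* dKO, of *Gata3* and of *Gata4*, ended without either *Ezh1/2* dKO library (limma adjusted p 0.235 to 0.379), while their log2 fold changes stayed between 2.01 and 2.52. Over all genes, the 503 higher and 54 lower calls of that comparison fell to 3 higher and 2 lower without the first *Ezh1/2* dKO library and to 1 and 2 without the second.

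*Gata2* was called in no comparison, and its libraries differed widely within *Ezh1/2* dKO and within *Ezh2* Y726D. Normalized counts were 9.34 and 7.70 in WT, 7.32 and 8.71 in *Ezh2* KO, 20.5 and 51.5 in *Ezh2* Y726D and 8.24 and 30.2 in *Ezh1/2* dKO. Both *Ezh2* Y726D libraries were above all 4 libraries of WT and *Ezh2* KO, whereas the first *Ezh1/2* dKO library lay within their range. The log2 fold change over WT was 1.82 ± 0.67 in *Ezh2* Y726D (limma adjusted p = 0.249) and 0.84 ± 0.67 in *Ezh1/2* dKO (limma adjusted p = 0.534, 95% interval -0.67 to 2.35). In *Ezh2* KO it was -0.08 ± 0.67 (limma adjusted p = 0.985). The X-linked paralog *Gata1*, named after its values were seen, was likewise highest in the second *Ezh2* Y726D library, at 32.4 beside 10.7 in the first and at most 4.0 in WT, and did not pass (log2 fold change 2.66, limma adjusted p = 0.138).

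*Gata6* had few reads in any line and the most in *Ezh1/2* dKO ESCs. It had 0 and 2 reads in WT, 0 and 0 in *Ezh2* KO, 4 and 1 in *Ezh2* Y726D and 9 and 13 in *Ezh1/2* dKO, with normalized counts of 7.42 and 11.5 in *Ezh1/2* dKO and at most 3.57 in any other library. Pooled, this was a level (CPM, reads scaled to the depth of the library) of 2.18 in *Ezh1/2* dKO (exact Poisson 95% interval 1.37 to 3.31), 0.555 in *Ezh2* Y726D (0.18 to 1.30) and 0.242 in WT (0.0294 to 0.876). In *Ezh2* KO, 0 reads of 9010546 allow a CPM of up to 0.333, taken as 3 reads. The interval of *Ezh1/2* dKO lay above those of the other lines, but counting error is all that these intervals cover. When no filter on low values was applied, limma called *Gata6* higher in *Ezh1/2* dKO than in *Ezh2* KO and in no other comparison. *Gata5* had 5 reads in WT, 3 in *Ezh2* KO, 3 in *Ezh2* Y726D and 4 in *Ezh1/2* dKO, and its normalized count was at most 4.81 in any library. At this depth no difference of *Gata5* between lines was detectable.

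**Figure D1:**
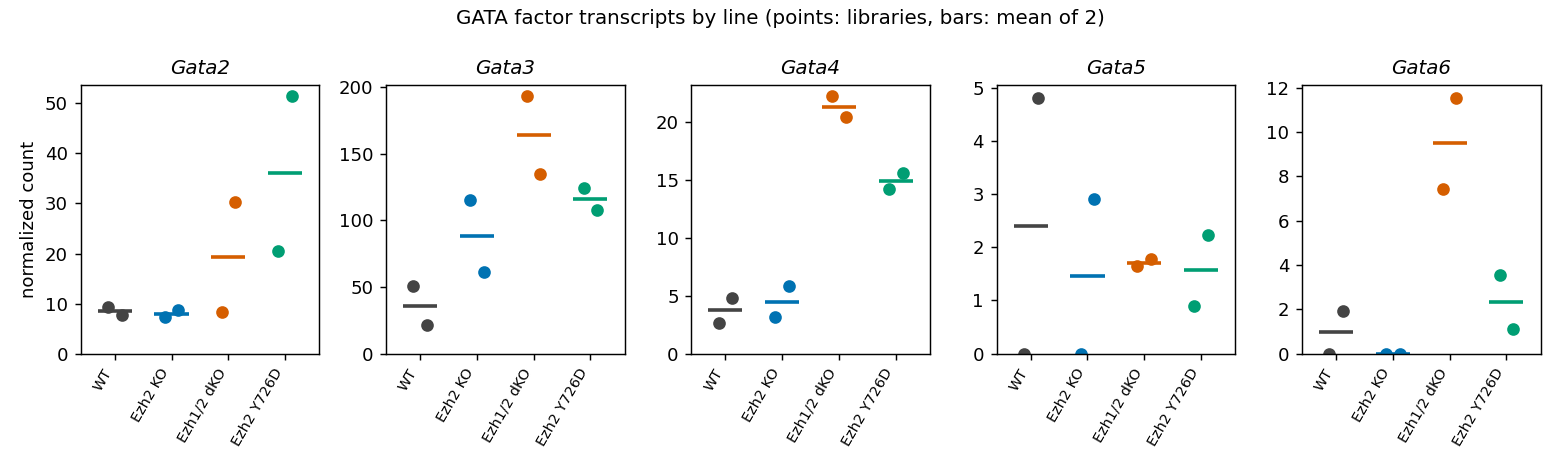
Normalized count (y axis, a separate scale for each gene) of the 5 GATA factors in each RNA-seq library (points) and the mean of the 2 libraries of a line (bars), by line. *Gata3*, *Gata4* and *Gata6* were highest in both *Ezh1/2* dKO libraries, *Gata2* was highest in an *Ezh2* Y726D library at 51.5, and *Gata5* stayed at or below 4.81.

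Per kilobase of merged exons, the mean normalized count of *Gata3* was 9.03 in WT, 22.1 in *Ezh2* KO, 29.1 in *Ezh2* Y726D and 41.2 in *Ezh1/2* dKO. *Gata2* followed at 2.54 in WT, 2.39 in *Ezh2* KO, 10.7 in *Ezh2* Y726D and 5.73 in *Ezh1/2* dKO. *Gata4* was at 0.957 and 1.14 per kilobase in WT and *Ezh2* KO and at 3.83 and 5.46 in *Ezh2* Y726D and *Ezh1/2* dKO, and *Gata5* was between 0.443 and 0.735. *Gata6* was at 0.301 in WT, listed at 0 in *Ezh2* KO, and at 2.97 and 0.733 in *Ezh1/2* dKO and *Ezh2* Y726D. On this scale *Gata3* exceeded the next member in every line. These are bulk samples, so a larger share of cells with a transcript and more transcript per cell cannot be told apart.

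Read against all genes, 2 of the 3 tested members were called higher in *Ezh1/2* dKO against WT, where 3.63% of tested genes were, and 1 of 3 in *Ezh2* Y726D against WT, where 1.66% were. In *Ezh2* KO against WT, 0 of 3 were called by limma (1 at an unadjusted p under 0.05, 0 with edgeR and 0 with DESeq2) and 0.0937% of genes were. For *Ezh1/2* dKO against *Ezh2* KO the count was 0 of 3 (1 at an unadjusted p under 0.05, 1 with edgeR and 0 with DESeq2) beside 3.52% of genes. For *Ezh2* Y726D against *Ezh2* KO it was 0 of 3 (2 at an unadjusted p under 0.05, 0 with either other tool) beside 2.31%, and for *Ezh2* Y726D against *Ezh1/2* dKO 0 of 3 by each of these counts beside 0.187%. The comparisons with WT share the WT libraries. No member was called lower in any comparison. With quantile normalization, the 503 higher and 54 lower calls of all genes in *Ezh1/2* dKO against WT became 290 and 129, and the 26 and 207 in *Ezh2* Y726D against *Ezh1/2* dKO became 50 and 168.

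**Figure D2:**
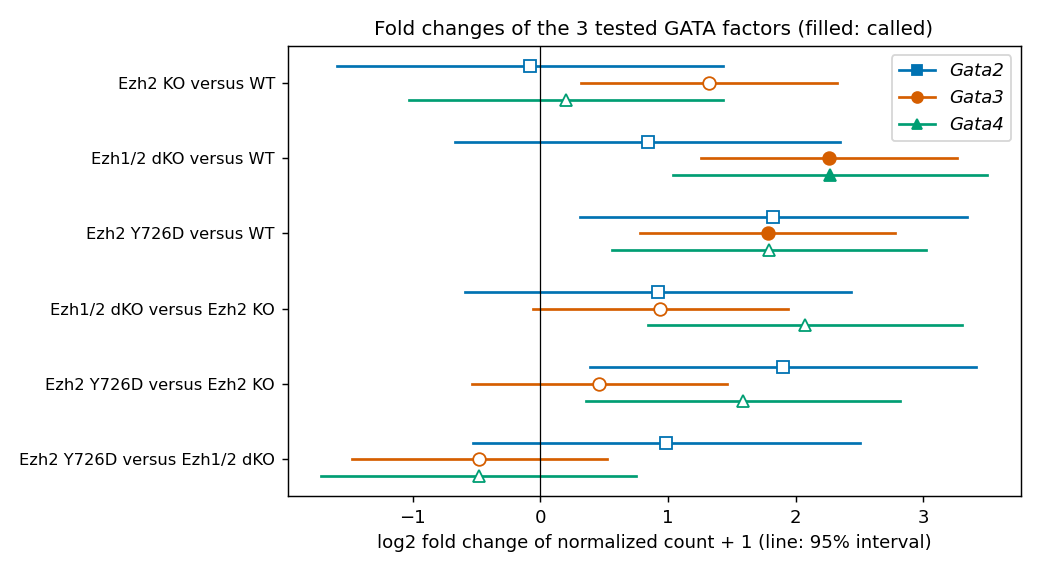
Log2 fold change of normalized count plus 1 (x axis) of *Gata2*, *Gata3* and *Gata4* in the 6 comparisons of lines (y axis), with the 95% interval from limma as lines and filled symbols where the gene was called. The filled symbols are *Gata3* at 2.26 and 1.78 and *Gata4* at 2.27, and the 3 intervals of *Ezh2* Y726D against *Ezh1/2* dKO all include 0.

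Over the 8 libraries, Pearson's r of log2 values was 0.371 between *Gata2* and *Gata3*, 0.623 between *Gata2* and *Gata4* and 0.664 between *Gata3* and *Gata4*. The genes whose values were most like *Gata3* were *Galnt10* (r = 0.981), *Rbm44* (0.978) and *Igsf1* (0.972), and those most like *Gata4* were *Car12* (0.984), *Qsox1* (0.983) and *Slc16a10* (0.982). Nearest to *Gata2* were *Dqx1* (0.979), *Ccnj* (0.965) and *Psmf1* (0.964). Each r spans 8 libraries of 4 lines, so libraries share their line, and these genes were the 3 nearest of all tested genes to each member.

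Proteins that act with GATA factors and genes of the tissues in which these factors act were listed by name. The lists were made with earlier results of these data known, so their counts are a description. Of all tested genes, 3.63% were called higher in *Ezh1/2* dKO, 1.66% in *Ezh2* Y726D and 0.0937% in *Ezh2* KO against WT. Against *Ezh2* KO the shares were 3.52% in *Ezh1/2* dKO and 2.31% in *Ezh2* Y726D. Among 13 partner proteins, of which 9 were tested, none was called against WT in any line. *Zfpm1*, which encodes the GATA cofactor FOG1, was higher in *Ezh1/2* dKO than in *Ezh2* KO (log2 fold change 2.51 ± 0.61, limma adjusted p = 0.0763), at 22.3 and 16.0 beside 3.14 and 1.94. None of the other 6 genes with a GATA-type zinc finger was called in any comparison by limma.

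Of 14 tested primitive endoderm genes, 4 were higher and 0 lower in *Ezh1/2* dKO against WT, with a median log2 fold change of 0.88 beside 0.01 over all genes. They were the endocytic adaptor *Dab2* (2.84), the basement membrane collagens *Col4a1* (2.81) and *Col4a2* (2.47), and the endocytic coreceptor *Amn* (2.47). In *Ezh2* Y726D against WT 3 rose, *Col4a1* (2.91), *Col4a2* (2.62) and *Amn* (2.54), with a median of 0.56 beside -0.01. In *Ezh2* KO 0 of 14 were called by limma, with a median of -0.23. Against *Ezh2* KO, 5 of the 14 were higher in *Ezh1/2* dKO and 3 in *Ezh2* Y726D.

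Of 10 tested trophectoderm genes, the epithelial keratins *Krt18* and *Krt8* and the transcription factor *Tfap2a* were called higher in *Ezh1/2* dKO against WT (log2 fold changes 1.97, 1.54 and 1.87) and in *Ezh2* Y726D against WT (1.65, 1.59 and 1.59). *Tfap2a* was also the 1 gene of this list called in *Ezh2* KO (2.23 ± 0.38, limma adjusted p = 0.0758), where *Gata3* itself did not pass. Against *Ezh2* KO, *Ascl2*, a transcription factor of the trophoblast, was higher in *Ezh1/2* dKO (2.36) and in *Ezh2* Y726D (2.75). The list's median was 0.71 in *Ezh1/2* dKO, 1.34 in *Ezh2* Y726D and 0.13 in *Ezh2* KO, beside 0.01, -0.01 and -0.01 over all genes.

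Of 8 tested cardiac genes, 3 were higher in *Ezh1/2* dKO against WT: the T-box factors *Tbx20* (3.01) and *Tbx5* (2.88), and *Myl7* (1.60), an atrial myosin light chain. *Myl7* was the 1 called in *Ezh2* Y726D (1.40), and 0 were called in *Ezh2* KO by limma. *Kdr*, a receptor of vascular endothelial growth factor, was higher in *Ezh2* Y726D than in *Ezh2* KO (3.19). Of 5 tested blood genes, 0 were called against WT in any line, and *Cd34* was higher in *Ezh1/2* dKO than in *Ezh2* KO (3.28). None of these lists had a gene called lower in any comparison.

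Markers of other cell types moved in some of the same libraries. The summed normalized count of 4 detected fibroblast markers was 45.3 to 58.7 in WT, 28.2 to 53.2 in *Ezh2* KO, 126 to 187 in *Ezh2* Y726D and 143 to 208 in *Ezh1/2* dKO, with *Thy1* called higher in *Ezh1/2* dKO (3.53) and *Ezh2* Y726D (3.30) against WT. For 4 markers of 2-cell-like cells the sums were 282 to 666 in WT, 27.1 to 29.3 in *Ezh2* KO, 80.2 to 130 in *Ezh2* Y726D and 691 to 961 in *Ezh1/2* dKO, and *Zscan4c* and *Zscan4d* were called lower in *Ezh2* KO and *Ezh2* Y726D against WT. For 5 mesoderm markers the sums were 57.4 to 63.5 in WT, 46.0 to 46.4 in *Ezh2* KO, 72.2 to 183 in *Ezh2* Y726D and 69.2 to 69.3 in *Ezh1/2* dKO. For 5 neural markers they were 173 to 249 in WT, 204 to 441 in *Ezh2* KO, 198 to 313 in *Ezh2* Y726D and 321 to 453 in *Ezh1/2* dKO, with 0 of 3 tested genes of either list called against WT. No detected marker of these lists was at 0 in every library. Their part in the changes of the GATA factors was not tested.

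In the peak lists, a gene was taken to carry a peak where 1 lay within 5 kb of any of its start sites. Narrow peaks had a -log10 p of at least 10 in the authors' calls. In WT ESCs all 5 GATA factors carried a SUZ12 peak, beside 14.2% of 22359 protein-coding genes, and all 5 an H3K27me3 peak, beside 18.4%. Their strongest SUZ12 peaks ranked high in the list: the -log10 p was 125 at *Gata6*, 109 at *Gata5*, 106 at *Gata3*, 86.0 at *Gata2* and 55.7 at *Gata4*. The shares of genes with a peak at least that strong were 0.416%, 0.841%, 0.917%, 1.68% and 3.76%. The peaks over *Gata2* and *Gata6* were the longest, at 8362 and 5968 bp, and *Gata5* carried 1 peak of 2115 bp. At *Gata3* and *Gata4* SUZ12 lay in 6 separate peaks each, with the strongest near an inner start site of the gene. For H3K27me3 the order was different: *Gata3* ranked within 0.344% of genes and *Gata2* within 1.19%, and the other 3 between 4.15% and 4.55%.

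The -log10 p depends on the depth of each library, which is unknown, and cannot be compared between lines. Comparisons across lines therefore use presence, covered bases and rank within a list. Presence and covered bases are set by a cut-off on -log10 p and share this limit. The strongest H3K27me3 peaks at the members had a -log10 p of 23.2 to 35.3 in WT. They had 134 to 484 in *Ezh2* KO and 205 to 531 in *Ezh2* R685C. The paper scaled its histone mark signal by spiked-in *Drosophila* chromatin, which was not used here. Over the gene and 10 kb on either side, SUZ12 peaks in WT covered 11060 bp at *Gata2*, 11589 bp at *Gata3*, 7317 bp at *Gata4*, 2115 bp at *Gata5* and 7431 bp at *Gata6*. H3K27me3 peaks covered 17348, 20112, 13486, 6511 and 8897 bp at the same genes, more than SUZ12 at each.

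In *Ezh2* KO ESCs all 5 members kept a SUZ12 peak, beside 4.16% of all genes and 29.3% of the 3178 genes with a WT SUZ12 peak. With a -log10 p of at least 20, or with the 5′ end of the gene as the only start, it was 3 of 5, without *Gata3* and *Gata4*. The covered length was 4442 bp at *Gata2*, 404 bp at *Gata3*, 997 bp at *Gata4*, 1212 bp at *Gata5* and 3461 bp at *Gata6*. *Gata3* was left with 1 peak of 404 bp, with its summit at -4303 bp from the second start site, and *Gata4* with 1 peak of 997 bp over its 3 clustered start sites. H3K27me3 was listed at all 5 (14.5% of all genes) over 12404, 12476, 11633, 5623 and 12551 bp, and the order against WT depended on the threshold. The covered length exceeded that of WT at *Gata6* only, but among peaks with a -log10 p of at least 20 it was also higher at *Gata4* (11633 beside 4393 bp) and *Gata5* (5623 beside 3823 bp). These lengths do not measure the amount of the mark. In this line the paper reports a global loss of H3K27me3 by western blot. By ChIP-seq scaled to spiked-in chromatin, it reports H3K27me3 still at most target sites but less spreading outside SUZ12 peaks. By rank, *Gata6* (0.358% of genes at or above) and *Gata5* (1.02%) stood highest, and *Gata3* moved to 4.85%.

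In *Ezh1/2* dKO ESCs, 2 of the 5 members kept a SUZ12 peak, beside 1.01% of all genes and 7.11% of those with a WT SUZ12 peak. The *Gata6* peak at chr18:11053944-11055171 had its summit in a coding exon, 2119 bp past the start site, and 14 of the 317 peaks of the list were at least as strong. The *Gata5* peak at chr2:180068448-180069108, shown by sequence above, had its summit 413 bp past a start site and was weaker, with 199 of 317 at or above. *Gata2*, *Gata3* and *Gata4* had no SUZ12 peak within 10 kb of the gene. With a -log10 p of at least 20, 0 of the 5 kept one. *Gata6*, the member with the stronger peak left here, also had most of its reads in this line, 22 beside 5 in *Ezh2* Y726D, 2 in WT and 0 in *Ezh2* KO.

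H3K27me3 was listed at 1 of 5 members in *Ezh1/2* dKO, beside 0.0939% of genes. This was *Gata3*, with a peak at chr2:9796289-9796625 in and beside a coding exon, 3675 bp past the second start site. It was near the bottom of its list, with 51 of 53 peaks at least as strong, and none was listed at a -log10 p of at least 20. The paper reports complete loss of H3K27me3 at Polycomb-bound sites in this line, so the peak is not read as mark that was kept. The same stretch held a WT SUZ12 peak (9795185 to 9797271), and in *Ezh2* Y726D a SUZ12 peak (9796221 to 9796887) and an H3K27ac peak (9796292 to 9796872).

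In *Ezh2* Y726D ESCs all 5 members carried SUZ12, beside 10.1% of all genes and 61.0% of those with a WT SUZ12 peak, and none carried H3K27me3, beside 1.12%. SUZ12 covered 4212 bp at *Gata2*, 2641 bp at *Gata3*, 4869 bp at *Gata4*, 1471 bp at *Gata5* and 3383 bp at *Gata6*, less than in WT at each. *Gata5* ranked within 0.0403% of genes, the highest rank of any member in any SUZ12 list, and *Gata3* within 4.89%. No H3K27me3 peak was listed within 10 kb of any of the 5 genes.

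In *Ezh2* R685C ESCs all 5 carried SUZ12 (8.31% of all genes, 56.5% of those with a WT SUZ12 peak) and H3K27me3 (24.0% of all genes). SUZ12 covered 10659, 6800, 8664, 2563 and 8609 bp from *Gata2* to *Gata6*, with a single peak of 8609 bp at *Gata6*, and H3K27me3 covered 16487, 13030, 12336, 8424 and 9824 bp. The H3K27me3 ranks ran from 0.456% at *Gata6* to 4.09% at *Gata4*.

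**Figure D3:**
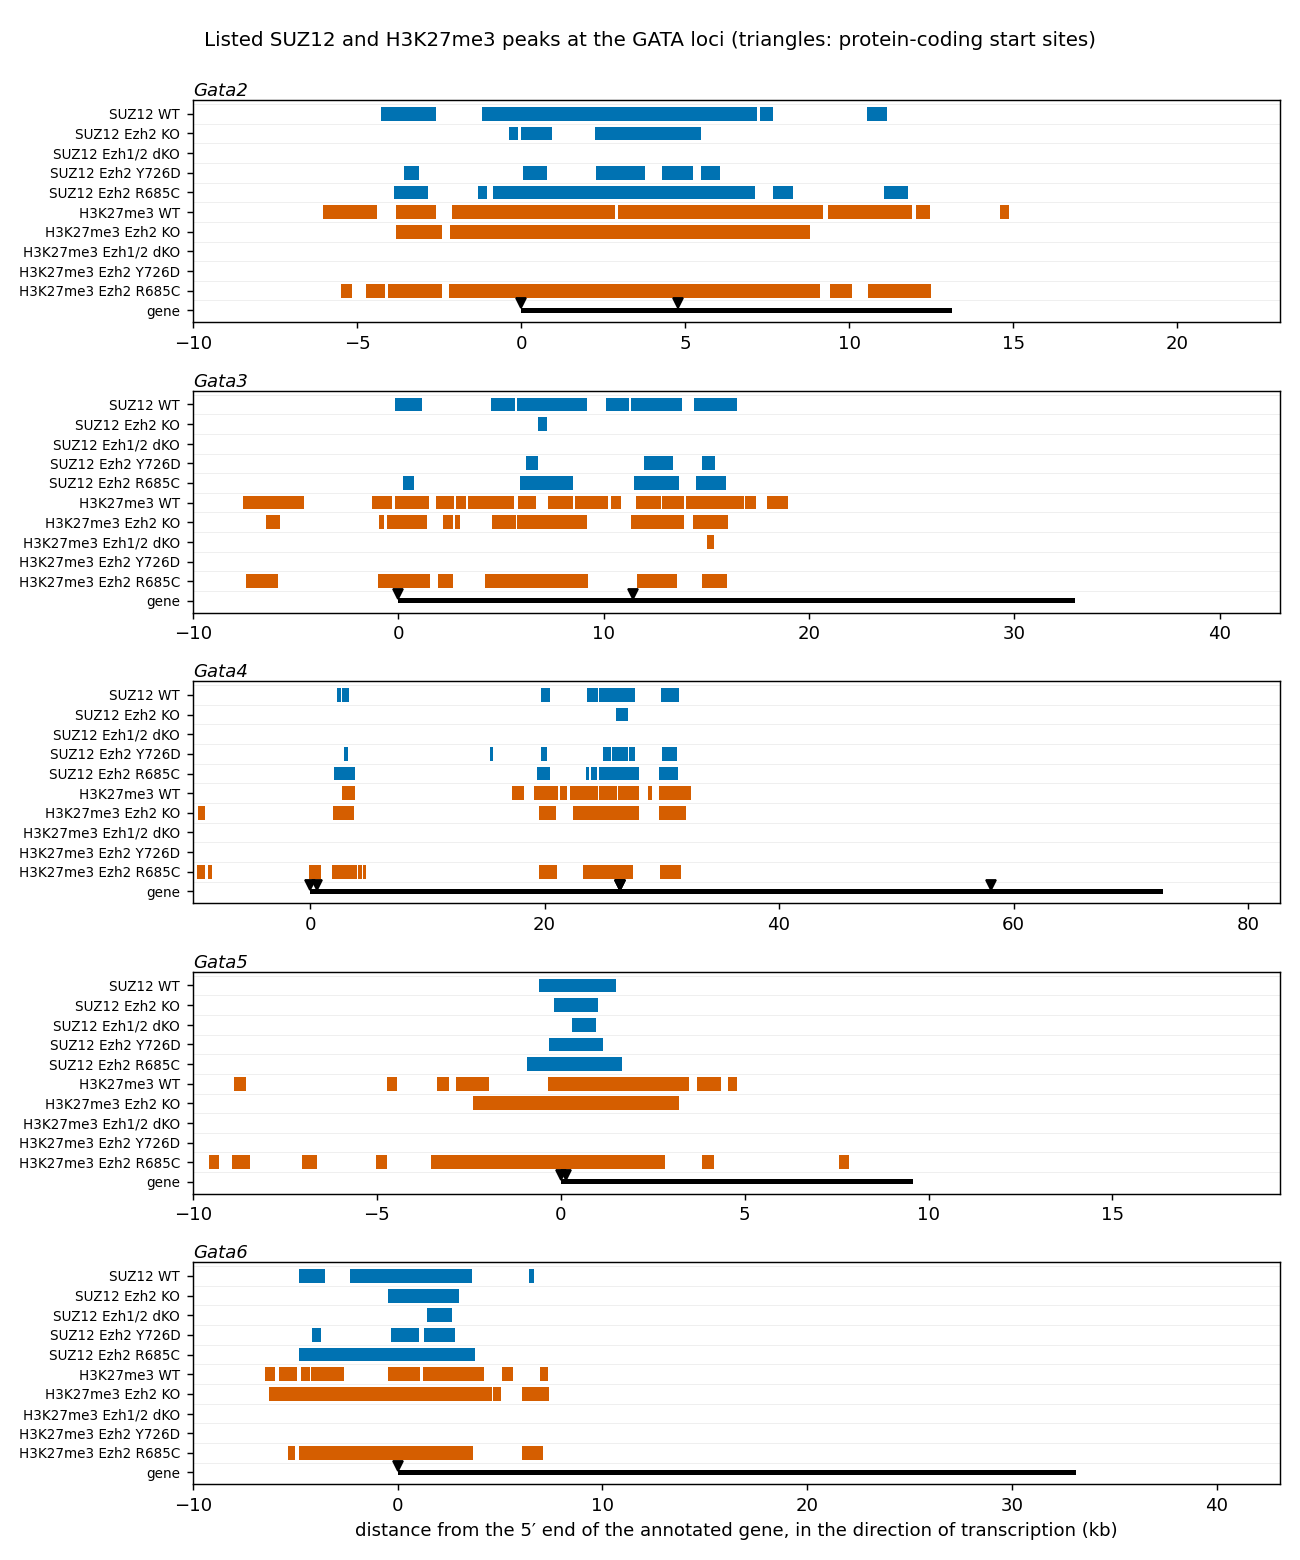
SUZ12 (blue) and H3K27me3 (orange) peaks listed for each line over the 5 GATA loci, against the distance in kb from the 5′ end of the gene in the direction of transcription (x axis), with the gene as a black bar and its protein-coding start sites as triangles. In WT and *Ezh2* R685C, SUZ12 and H3K27me3 peaks lie near a start site at every locus. In *Ezh2* KO, H3K27me3 is listed at every locus, and SUZ12 covers fewer bases than in WT at each. In *Ezh1/2* dKO only short SUZ12 peaks at *Gata5* and *Gata6* are left, and 1 weak H3K27me3 peak is listed at *Gata3*. *Ezh2* Y726D has SUZ12 at every locus and no H3K27me3.

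**Figure D4:**
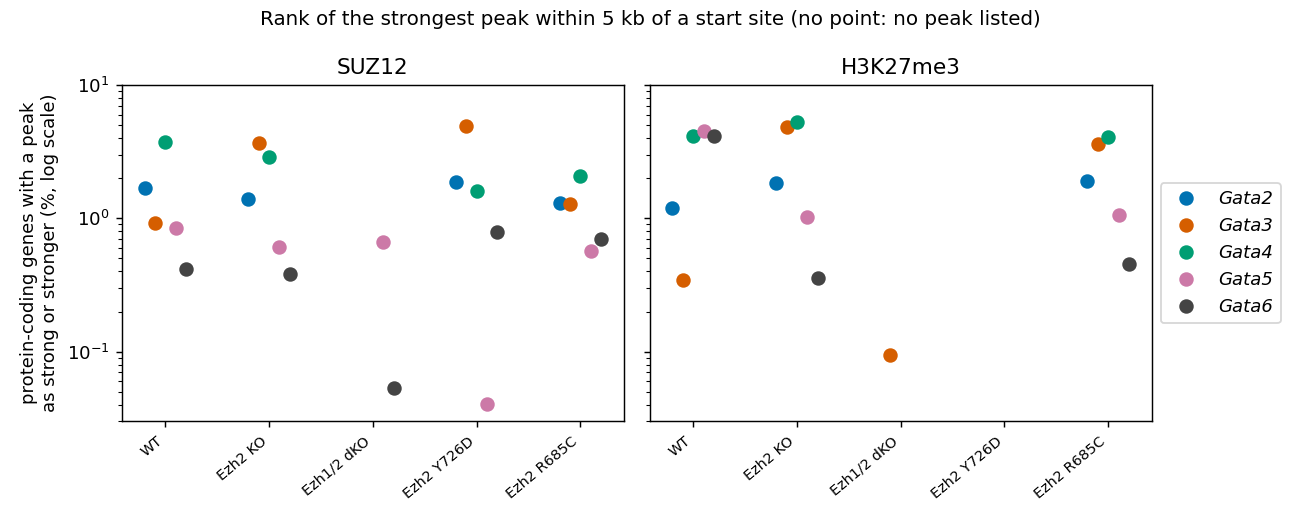
Share of protein-coding genes with a peak at least as strong as the strongest of each GATA factor (y axis, percent, log scale, lower is stronger), for SUZ12 and H3K27me3 in the 5 lines, with no point where no peak was listed. The values lie between 0.344% and 5.25% in the WT, *Ezh2* KO and *Ezh2* R685C lists, and the low point of *Gata3* in *Ezh1/2* dKO comes from a list of only 53 peaks.

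HA ChIP-seq showed where tagged EZH1 was found when added back. In *Ezh1/2* dKO ESCs with HA-EZH1 all 5 members carried an HA peak, beside 10.6% of genes, and 0 of 5 did in the control without it, beside 2.59%. HA peaks covered 8802 bp at *Gata2*, 7034 bp at *Gata3*, 6797 bp at *Gata4*, 1533 bp at *Gata5* and 5766 bp at *Gata6*. This was more at each gene than SUZ12 covered in *Ezh2* KO ESCs, but the measures are unlike. HA lists give no -log10 p, and the tagged human EZH1 came from a transfected vector. At *Gata3* the HA peaks included one (9796225 to 9796865) over the stretch listed for H3K27me3 in *Ezh1/2* dKO.

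H3K27ac was analysed in the mutant lines, and WT H3K27ac was not analysed here. It was listed near the start sites of 0 of 5 members in *Ezh2* KO, where 36.9% of all genes and 14.8% of genes with a WT SUZ12 peak had it. In *Ezh1/2* dKO the count was also 0 of 5, beside 27.7% and 19.0%, and in *Ezh2* R685C 0 of 5, beside 45.0% and 20.9%. In *Ezh2* Y726D it was 4 of 5, all but *Gata5*, beside 46.0% and 45.3%. The 4 of 5 in *Ezh2* Y726D is thus set against a share near 46.0% of all genes, and the lists differ in length: 25483 peaks in *Ezh2* KO, 17618 in *Ezh1/2* dKO, 40829 in *Ezh2* Y726D and 41185 in *Ezh2* R685C. The *Ezh2* R685C list, of similar length to that of *Ezh2* Y726D, had none near these start sites, but this stands beside only 20.9% of genes with a WT SUZ12 peak. The part of list length in these counts was not tested.

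These H3K27ac peaks were weak for their list. The strongest within 5 kb had a -log10 p of 16.4 at *Gata3*, 13.6 at *Gata2*, 13.1 at *Gata4* and 11.3 at *Gata6*, and between 30.7% and 42.8% of all genes had one at least as strong. With a -log10 p of at least 20, none of the 5 had an H3K27ac peak near a start site. At *Gata2* the peak nearest to a start site lay at chr6:88146691-88146895, with its summit at -1812 bp from the second start site, within the WT SUZ12 peak of 8362 bp. *Gata6* had 1 at chr18:11052675-11053122, 321 bp past its start site, and 1 at chr18:11048472-11048680, at -3893 bp from it. At *Gata4* the peaks were at chr14:63863423-63863707, chr14:63863858-63864216 and chr14:63859312-63859643, and the first and second of these lay inside a SUZ12 peak of the same line (63863423 to 63864739). *Gata3* had 3 within 5 kb, the nearest with its summit 542 bp past the second start site.

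Away from the start sites, *Gata3* and *Gata4* carried H3K27ac in all 4 mutant lines. At *Gata3* peaks lay from the 3′ part of the gene to beyond its end, with summits at least 16343 bp past the second start site, and *Ezh2* Y726D had 1 more at chr2:9794208-9794642, with its summit 5774 bp past it. Over the gene and 10 kb on either side, H3K27ac at *Gata3* covered 6021 bp in *Ezh2* R685C, 4750 bp in *Ezh2* Y726D, start-site peaks included, and 2367 and 1074 bp in *Ezh2* KO and *Ezh1/2* dKO. At *Gata4* it was 1 peak downstream of the gene, with its summit 19960 to 20282 bp past the last start site, of 1062 bp in *Ezh2* R685C, 1007 bp in *Ezh2* Y726D, and 905 and 773 bp in *Ezh1/2* dKO and *Ezh2* KO. *Gata5* had no H3K27ac peak within 10 kb in any line, and *Gata2* and *Gata6* had them only in *Ezh2* Y726D. *Gata3* and *Gata4*, called higher in *Ezh1/2* dKO RNA, had no H3K27ac peak near a start site in that line. Its list was the shortest of the 4 mutant lines, at 17618 peaks. From signal scaled to spiked-in chromatin, which was not used here, the paper reports H3K27ac entering promoters of this line that had carried H3K27me3. The absence of a listed peak is therefore not read as absence of the mark.

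**Figure D5:**
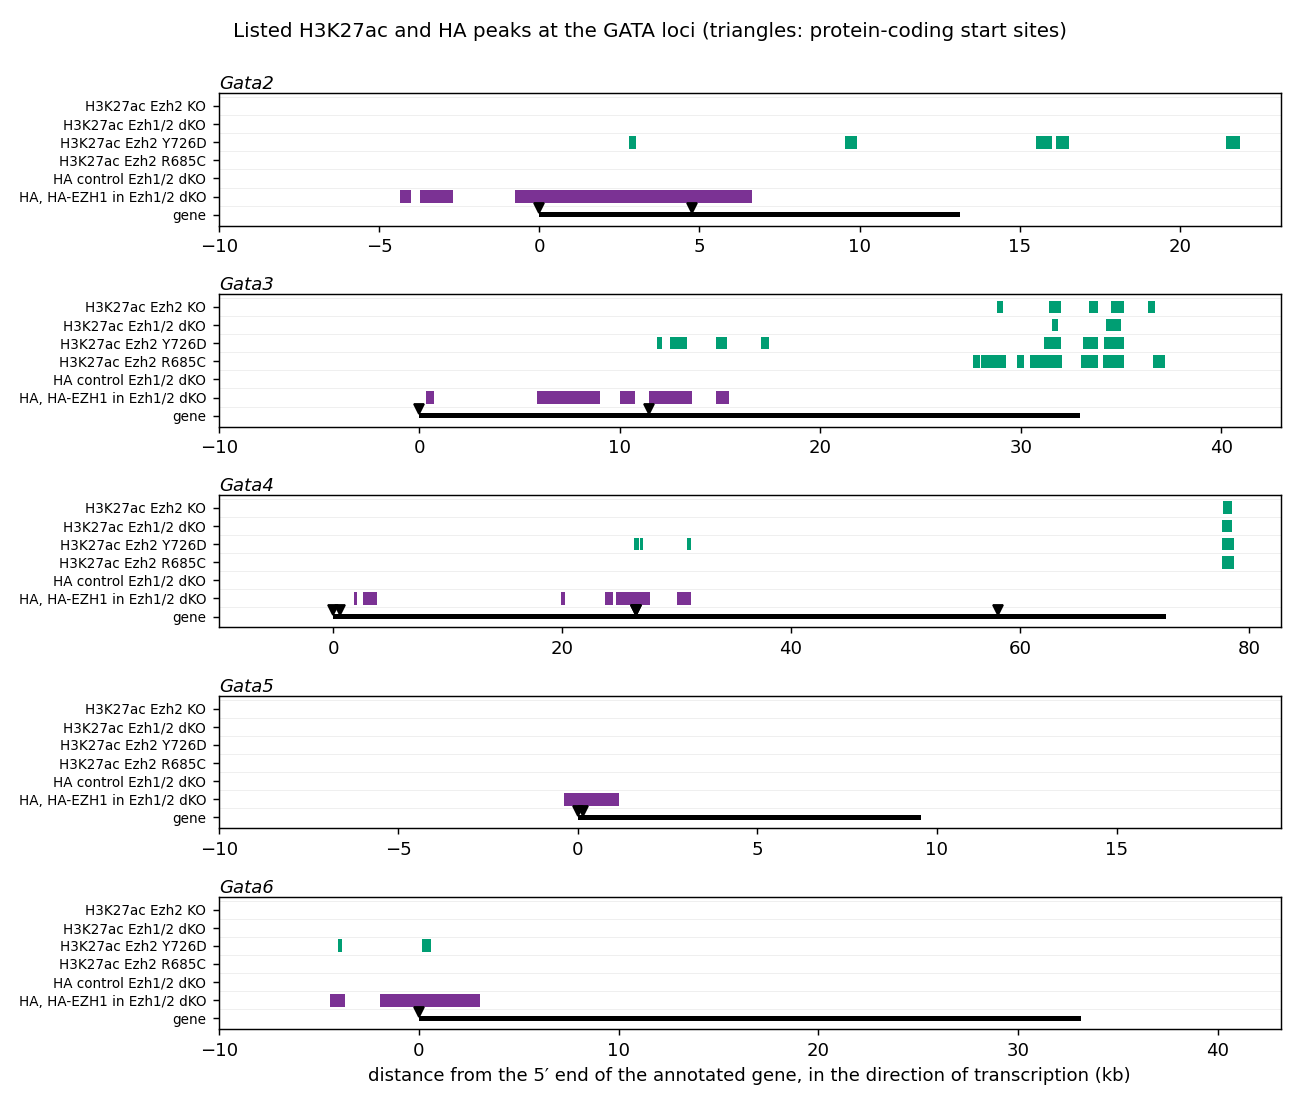
H3K27ac peaks (green) of the 4 mutant lines and HA peaks (purple) of *Ezh1/2* dKO ESCs without and with HA-EZH1 over the 5 GATA loci, against the distance in kb from the 5′ end of the gene (x axis), with the gene as a black bar and start sites as triangles. Near start sites H3K27ac is seen only in *Ezh2* Y726D, at *Gata2*, *Gata3*, *Gata4* and *Gata6*, while all 4 lines have peaks at the 3′ end of *Gata3* and 1 peak downstream of *Gata4*.

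H3K27me2 and ATAC-seq were deposited as broad regions with weak p-values and were used as listed. An H3K27me2 region lay within 5 kb of a start site at 1 of 5 members in WT, beside 68.5% of genes, at all 5 in *Ezh2* KO, beside 50.6%, at all 5 in *Ezh1/2* dKO, beside 82.1%, and at all 5 in *Ezh2* Y726D, beside 83.3%. The 1 in WT was *Gata4*, near its innermost start site. The WT list held regions on 19 chromosomes, beside 20 in *Ezh2* KO and *Ezh2* Y726D and 21 in *Ezh1/2* dKO. Genes on a chromosome without regions count as lacking one in these shares. All 5 members had a WT region within 10 kb of the gene. Within 5 kb of the 5′ end of the gene, H3K27me2 regions covered 0 bp at each of the 5 in WT. In *Ezh2* KO they covered all 10001 bp of that window at *Gata2*, *Gata3*, *Gata5* and *Gata6* and 7602 bp at *Gata4*. They covered 432 to 3037 bp in *Ezh1/2* dKO and 826 to 3446 bp in *Ezh2* Y726D. The strongest near each member had a -log10 p of 1.14 to 1.7 in *Ezh1/2* dKO and 1.26 to 2.17 in *Ezh2* Y726D. Both of these lists reach down to a -log10 p of 1.00. The paper reports loss of H3K27me2 in both lines, so presence there is not read as a gain over WT.

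At each member these regions ranked highest in *Ezh2* KO. Their -log10 p there was 9.32 at *Gata2*, 7.46 at *Gata3*, 7.74 at *Gata4*, 6.04 at *Gata5* and 6.95 at *Gata6*, and 0.577% to 5.60% of genes had a region at least as strong. The shares at or above in *Ezh1/2* dKO ran from 16.9% at *Gata3* to 79.2% at *Gata6*, and in *Ezh2* Y726D from 2.73% at *Gata2* to 70.0% at *Gata6*. The 2.73% of *Gata2* lies within the *Ezh2* KO range, and *Gata4* in WT was at 14.9%. All 5 loci thus held H3K27me2 in *Ezh2* KO at high rank, along with H3K27me3 and SUZ12.

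ATAC-seq regions, which mark accessible DNA, were listed at all 5 members in every line, beside 95.1% of genes in WT, 95.4% in *Ezh2* KO, 95.0% in *Ezh2* Y726D and 95.2% in *Ezh1/2* dKO, so presence carries no information about the members. By rank, *Gata3* was at 6.59% in WT, 9.29% in *Ezh2* KO, 9.28% in *Ezh2* Y726D and 62.2% in *Ezh1/2* dKO. The other members lay between 16.2% and 83.0% in all lines. *Gata3* in *Ezh1/2* dKO, where its transcript was highest, was thus the exception among its own ranks, in 1 library and with regions whose -log10 p was at most 2.96.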

How the data were processed

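RNA-seq libraries were made by SMART-seq2. The authors aligned reads to mm9 (TopHat), marked and dropped duplicates (Picard), assigned reads to RefSeq genes without strand (HTSeq-count) and deposited counts divided by DESeq2 size factors (unit: normalized count, a signal with whole reads recovered). Multiplied back by the size factor, 100% of values were whole reads within 1e-06. For ChIP-seq and ATAC-seq the authors aligned with Bowtie and called peaks with MACS2, and the deposited lists give a -log10 p and, for narrow peaks, a fold enrichment, with 1 library per line and target. HA lists give positions only. Deposited tables of the authors' comparisons with WT hold log2 fold changes and p-values and were not used, and H3K27me1 lists were not used here.

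The 5 members and the gene lists were chosen with earlier results of these data known. limma 3.58.1 (trend, R 4.3.3) was fitted to log2 of normalized count plus 1 over all 8 libraries and 13872 genes with a mean of at least 5, with Benjamini-Hochberg adjustment. Calls needed an adjusted p under 0.1 and a log2 fold change of 1 or more in either direction. edgeR 4.0.16 and DESeq2 1.42.0 on the recovered reads were alternatives: in *Ezh1/2* dKO against WT edgeR called 516 genes higher and 52 lower, and DESeq2 520 and 74. The limma fit alone was tested on simulated data, where it missed a larger share of the changes at low counts than at high counts. Other alternatives were the pseudocount, filter, normalization, thresholds, samples fitted, a replicate block and each library left out. Peaks were assigned with Python 3.11.15 to the start sites of 22359 protein-coding genes of GENCODE vM1 on mm9, the build of the lists, in which 0 of 4730940 regions passed a chromosome end. Named genes are the members, *Ezh1* and *Ezh2*, annotated genes that overlap a member, up to 4 called genes per list and comparison with the largest change, and the 3 genes most correlated with each tested member. Poisson intervals and the floor of 3 reads cover counting error only.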

Additional observations from a re-analysis of the deposited data

How the results depend on the processing

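With fold changes of 2 against 2 libraries and 1 library per peak list, the values above are limited by replication, and the members with under 10 reads a library by depth. In *Ezh1/2* dKO against WT, 2 members were called, and 1, *Gata3*, at an adjusted p under 0.05, at a mean of at least 20, with quantile normalization and with DESeq2. Leaving out 1 library gave 0 to 2 calls, with 0 without either *Ezh1/2* dKO library and 1 without the first WT library. The log2 fold changes then ranged from 1.65 to 2.87 for *Gata3* and from 1.94 to 2.61 for *Gata4*. In *Ezh2* Y726D against WT, the 1 call became 0 at an adjusted p under 0.05, without a filter, with quantile normalization, with edgeR and with only the libraries compared, and 0 to 1 with 1 library left out, where the log2 fold change of *Gata3* ranged from 1.17 to 2.39. In *Ezh1/2* dKO against *Ezh2* KO, 0 calls became 1 with a pseudocount of 5, upper-quartile rescaling, edgeR or only the libraries compared (*Gata4* each) and without a filter (*Gata6*), and 0 to 1 with 1 library left out (*Gata4* without either WT library). In *Ezh2* Y726D against *Ezh2* KO the range was 0 to 1, with *Gata2* called without the first *Ezh2* Y726D library. The cause of these changes was not tested. Upper-quartile rescaling moved the median of all genes from 0.01 to 0.14 in *Ezh1/2* dKO against WT and from -0.01 to 0.15 against *Ezh2* KO.

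Differences near 0 changed sign. In *Ezh2* KO against WT, *Gata2* was at 0.04 with quantile normalization and between -0.20 and 0.05 with 1 library left out, and *Gata4* between -0.16 and 0.56. *Gata2* in *Ezh1/2* dKO against WT, at 0.84 with all libraries and so not near 0, depended on single libraries. It ranged from -0.04, without the second *Ezh1/2* dKO library, to 1.72, without the first.

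The correlation of deviations between same-numbered libraries was 0.223 to 0.288 between mutant lines and -0.409 to -0.065 between WT and each of them, so the numbers were not taken to pair the libraries. With the replicate number as a block, limma made the same number of member calls in each comparison (2 in *Ezh1/2* dKO and 1 in *Ezh2* Y726D against WT, 0 in the others), with *Gata3* at 2.26 and an adjusted p of 0.0246 in *Ezh1/2* dKO.

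At a -log10 p of at least 20, SUZ12 was listed at 3 members in *Ezh2* KO and 0 in *Ezh1/2* dKO, H3K27me3 at 0 in *Ezh1/2* dKO, and H3K27ac at 0 in *Ezh2* Y726D. Within 1 kb of a start site, SUZ12 was at 1 member (*Gata5*) and H3K27me3 at 0 in *Ezh1/2* dKO, and H3K27me2 at 0 in WT and 1 in *Ezh1/2* dKO. With the gene's 5′ end as the only start, SUZ12 was at 3 members in *Ezh2* KO, H3K27me3 at 0 in *Ezh1/2* dKO, H3K27ac at 2 in *Ezh2* Y726D (*Gata2*, *Gata6*) and H3K27me2 at 0 in WT. Within 10 kb of the gene, H3K27ac was at 2 members (*Gata3*, *Gata4*) in each of *Ezh2* KO, *Ezh1/2* dKO and *Ezh2* R685C, and H3K27me2 at 5 in WT. The median covered length over the 5 loci, counted only within 5 kb of the 5′ end, was 2115 bp for SUZ12 in WT, 1471 bp in *Ezh2* Y726D and 2563 bp in *Ezh2* R685C, 6199, 5623 and 6955 bp for H3K27me3 in WT, *Ezh2* KO and *Ezh2* R685C, 0 bp for H3K27ac in *Ezh2* Y726D and 1533 bp for HA-EZH1. At a -log10 p of at least 20 it was 1289 bp for SUZ12 in *Ezh2* Y726D, 7019 bp for H3K27me3 in WT, below the 11633 bp in *Ezh2* KO and 10698 bp in *Ezh2* R685C, whereas WT was above both without that threshold, and 0 bp for H3K27ac in *Ezh2* Y726D.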
